A study of Mus musculus with 3 samples.

Results

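Described here are 7 genes of GABA-A receptor subunits in ribosome-bound RNA from the mouse cortex-amygdala transition zone: the alpha subunits Gabra2, Gabra3, Gabra4 and Gabra5, the beta subunits Gabrb1 and Gabrb2, and the delta subunit Gabrd. They were taken by symbol from the 32531 genes of the count files, and all 7 were found in each file. The files list 19 genes of the GABA-A family under the same naming scheme, and the other 12 are not reported here. There was a single group of 3 adult control mice without treatment, all of the line Lypd1-EGFP/Rpl10a (OI82), from which 3 libraries of RNA immunopurified with anti-EGFP antibodies were sequenced, called replicates 1, 2 and 3. In this line the EGFP-tagged ribosomal protein L10a is made in cells that use the Lypd1 driver, so the levels are averages over all tagged cells plus any untagged RNA carried along. Strain background, sex and any pooling of animals are not given in the sources used here, and no unpurified RNA or other line was analysed here. Unless a library is named, a value is a mean ± SD with n = 3, and this spread may be partly technical.

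GABA-A receptors are chloride channels built as pentamers around a central pore and opened by GABA, the main inhibitory transmitter of the brain. The transmitter binds at the interface between a beta and an alpha subunit, and the alpha subunit also decides much of the response to benzodiazepines. Receptors with alpha2 or alpha3 are known mostly from synapses, where they carry brief inhibitory currents. Receptors with alpha5, or with alpha4 together with delta, are known mostly from outside synapses, where they carry a steady tonic current, and those with delta respond strongly to neurosteroids.

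The libraries held 8668527 to 24690301 counts assigned to genes, replicate 3 having the fewest. Levels are in CPM, a gene's counts over all assigned counts of its library, scaled to the usual counts-per-million unit. A level of 3 counts, the most that a count of 0 would allow, is 0.122 to 0.346 CPM, and this floor and the intervals below cover counting error only. All 8 pan-neuronal, 6 of 6 glutamatergic and 4 of 5 GABAergic markers reached 1 CPM in each library, as did 6 of 6 astrocyte, 6 of 6 oligodendrocyte, 4 of 4 oligodendrocyte precursor, 3 of 6 microglial and 4 of 6 endothelial markers. The summed astrocyte markers were 2102, 1323 and 1302 CPM in replicates 1, 2 and 3, and the summed GABAergic markers 654, 410.04 and 427 CPM. The pan-neuronal sum was 11516, 17644 and 9581 CPM, of which Snap25 alone made up 7606, 13126.5 and 6317 CPM. All 7 subunit genes passed 1 CPM in each library. Together they took 483, 540 and 409 CPM, a mean of 477 ± 65.7 CPM, which was 33.4 ± 0.941% of the counts of the 19 family genes.

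The subunit genes lie in several places of the genome, and 3 of them are neighbours. Positions are those of GENCODE M21 on GRCm38, which is the mm10 assembly. Gabra2 (ENSMUSG00000000560.9) spans 70957597 to 71095849 and Gabra4 (ENSMUSG00000029211.11) spans 71569749 to 71658308 on the minus strand of chromosome 5, with 473.9 kb between them. Gabrb1 (ENSMUSG00000029212.11) covers 71658113 to 72149037 on the opposite strand of the same chromosome. Gabra4 and Gabrb1 are thus read away from each other, and their annotated ends overlap by 196 bases. Gabra3 (ENSMUSG00000031343.13) spans 72432681 to 72656848 on the minus strand of chromosome X. Gabra5 (ENSMUSG00000055078.7) spans 57407672 to 57510059 on the minus strand of chromosome 7. Gabrb2 (ENSMUSG00000007653.12) lies on chromosome 11, plus strand, from 42419757 to 42629028, and Gabrd (ENSMUSG00000029054.8) spans 155384980 to 155398112 on the minus strand of chromosome 4.

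**Figure D1:**
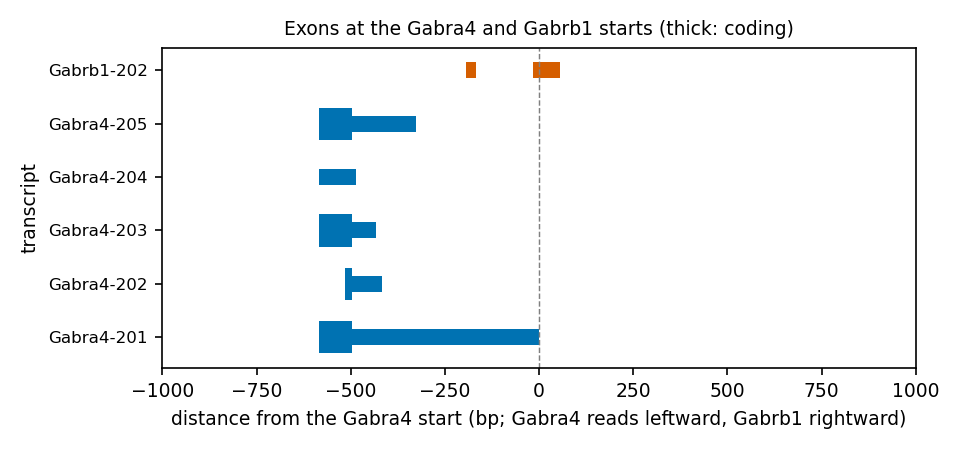
Annotated exons of Gabra4 (blue) and Gabrb1 (orange) transcripts around the start of Gabra4, plotted by distance in base pairs, with coding parts drawn thick. The first exon of a Gabrb1 transcript starts 195 bases inside the longest Gabra4 transcript, and its next exon runs from 17 bases inside to 55 bases beyond the Gabra4 start.

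Exons of Gabra4 and Gabrb1 share 46 bases, which is 0.756% of the exon length of Gabra4 and 0.332% of that of Gabrb1. The strand setting of the counting is not given in the sources used here, so reads from that stretch cannot be assigned to either gene with certainty, and HTSeq puts a read that touches both genes into its ambiguous class under its usual settings.

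Promoter windows, from 250 bases before to 50 after a start, were found for 6 of the 7 genes in the RefSeq table for GRCm38.p6, 10 windows in all. The members differ widely in CG dinucleotides, the sites of DNA methylation, counted once per window because CG reads the same on both strands. A window of Gabra2 held 25, as did 1 of the 2 windows of Gabrb1, against a median of 7 over all 32851 windows of that length. Most of that Gabrb1 window, chr5:71657671-71657970, is also annotated as the first exon of Gabra4, including some of its coding sequence. Both windows of Gabra3 held 0, while 94.6% of all windows held at least 1. The windows of Gabra4 and Gabra5 held 12 and 13, and those of Gabrb2 9 to 11. The letters TATAAA, searched on both strands, were in both windows of Gabra3, which overlap each other, and in 1 window of Gabrb2, against 13.6% of all windows. The letters TGACGTCA, a cyclic AMP response element that reads the same on both strands, were in 0 of the 10 windows and in 1.79% of all. The letters GCGNGGGCG, the form bound by EGR factors, were searched on both strands and found in 1 window of Gabrb1 and 1 of Gabrb2, against 5.55% of all windows. The Gabrb1 window concerned is the one that mostly coincides with the Gabra4 exon. Matches are letters only and do not show binding. The upstream parts that hold no annotated exon are printed for 4 genes, to show the CG-rich and CG-free alpha genes, the alpha gene that faces Gabrb1 and the member with the highest level. Capitals mark CG. The stretches are chr5:71095850-71096099 (minus strand, Gabra2), chrX:72656849-72657057 (minus strand, Gabra3), chr5:71658364-71658558 (minus strand, Gabra4) and chr11:42420951-42421200 (plus strand, Gabrb2) of GRCm38.p6. The Gabrb2 stretch lies before a start at 42421201, inside the annotated gene, which begins at 42419757, so it is not upstream of the whole gene.
Gabra2: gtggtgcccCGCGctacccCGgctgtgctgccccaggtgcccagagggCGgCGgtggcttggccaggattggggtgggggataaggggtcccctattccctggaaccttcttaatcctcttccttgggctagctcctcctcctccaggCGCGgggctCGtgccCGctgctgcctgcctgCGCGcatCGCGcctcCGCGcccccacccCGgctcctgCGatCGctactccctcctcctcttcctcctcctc
Gabra3: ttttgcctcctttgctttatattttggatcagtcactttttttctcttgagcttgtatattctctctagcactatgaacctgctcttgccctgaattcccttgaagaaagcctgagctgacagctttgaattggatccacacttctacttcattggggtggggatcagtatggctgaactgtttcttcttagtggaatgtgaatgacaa
Gabra4: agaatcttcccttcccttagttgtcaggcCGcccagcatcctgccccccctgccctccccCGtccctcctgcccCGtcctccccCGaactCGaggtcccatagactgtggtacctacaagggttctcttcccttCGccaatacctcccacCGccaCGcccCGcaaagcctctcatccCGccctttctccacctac
Gabrb2: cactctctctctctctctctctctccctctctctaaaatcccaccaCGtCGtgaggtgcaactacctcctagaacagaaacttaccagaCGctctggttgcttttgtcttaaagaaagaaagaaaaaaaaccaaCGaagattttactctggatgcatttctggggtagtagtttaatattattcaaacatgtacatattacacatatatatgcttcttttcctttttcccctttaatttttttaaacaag

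Among the alpha members, Gabra2 was the steadiest between libraries in CPM, though not with TMM scaling. Gabra2, whose protein is placed at synapses on the cell body and axon start of principal neurons, measured 88.9, 105 and 90.6 CPM in replicates 1, 2 and 3, a mean of 94.8 ± 8.87 CPM. Its highest library exceeded its lowest 1.18-fold in CPM and 1.35-fold with TMM scaling. Gabra5, the alpha subunit best known from hippocampal pyramidal cells, measured 61.5, 47.0 and 55.8 CPM, a mean of 54.8 ± 7.33 CPM. Its libraries lay within 1.31-fold in CPM, the second narrowest spread of the members. With TMM scaling they lay within 1.24-fold, narrower than those of Gabra2.

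Gabra3 and Gabra4 spread more. Gabra3, a synaptic alpha subunit, measured 38.2, 45.8 and 26.6 CPM, a mean of 36.9 ± 9.64 CPM, with replicate 3 the lowest. Gabra4, the alpha subunit that joins delta, measured 25.9, 64.2 and 50.9 CPM, a mean of 47.0 ± 19.5 CPM. Replicate 1 stood apart, below the other libraries by 1.97-fold and 2.48-fold. Per kb of exons, Gabra4 was the lowest alpha member in replicates 1 and 2, at 4.25 and 10.6 CPM per kb, and in replicate 3 it was above Gabra3, at 8.36 against 6.79 CPM per kb.

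The beta members were far apart. Gabrb2, a beta subunit of wide use in the adult forebrain, measured 257, 241 and 154 CPM in replicates 1, 2 and 3, a mean of 217 ± 55.7 CPM, and led the 7 genes in each library. Replicate 3 was the lowest. Gabrb1, the beta subunit whose channels respond least to some anaesthetics, measured 7.99, 16.6 and 23.4 CPM, a mean of 16.0 ± 7.73 CPM. Here replicate 3 was the highest and replicate 1 the lowest, the reverse of Gabrb2.

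Gabrd, the delta subunit of tonic receptors, was the most uneven member. Replicate 1 gave 58 counts, or 3.13 CPM with an exact 95% binomial interval of 2.38 to 4.05. The 504 counts of replicate 2 were 20.4 CPM (18.7 to 22.3), and the 72 counts of replicate 3 were 8.31 CPM (6.50 to 10.5). The mean was 10.6 ± 8.87 CPM, and 5.72 CPM without replicate 2. The 3 intervals did not overlap, so the libraries differed by more than counting error, 6.52-fold between the lowest and the highest. The intervals of Gabra3, Gabra4, Gabrb1 and Gabrb2 did not overlap between libraries either, while those of Gabra2 and Gabra5 overlapped between replicates 1 and 3. This trait is thus not particular to Gabrd. The share of all genes with such intervals was not computed, so no result about the members is drawn from it. In bulk RNA, fewer cells that use a gene and less of its RNA per cell cannot be told apart.

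**Figure D2:**
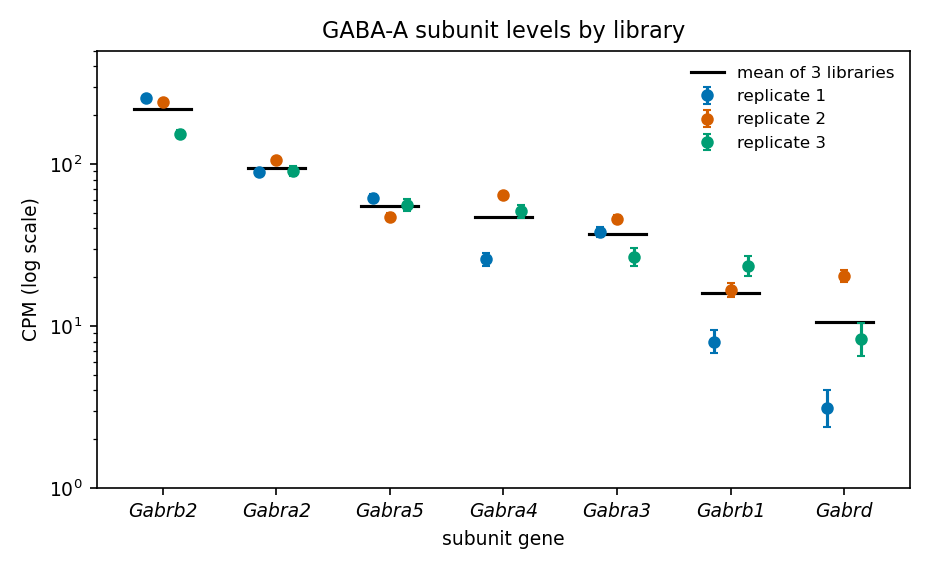
CPM of each subunit gene on a log axis, with the 3 libraries as points, the exact 95% binomial interval of each point as a bar and the mean as a black line. Levels carry no length correction. The points of Gabrd and Gabrb1 are spread widest and those of Gabra2 narrowest.

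Levels of different genes are compared per kb of annotated exon length, which ran from 2875 bases for Gabrd to 13838 for Gabrb1. On that scale Gabrb2 led with 34.2 ± 8.76 CPM per kb, followed by Gabra5 at 18.4 ± 2.47, Gabra2 at 12.4 ± 1.16, Gabra3 at 9.40 ± 2.46, Gabra4 at 7.72 ± 3.20, Gabrd at 3.69 ± 3.09 and Gabrb1 at 1.16 ± 0.559 CPM per kb. The median of the 7 genes was 9.92 ± 1.66 CPM per kb, beside 5.81 ± 0.318 over the 11741 genes with 1 CPM in each library and a length. Gabrb2 lay at the 92.1st percentile of those genes, Gabra5 at the 82.4th, Gabrd at the 34.3rd and Gabrb1 at the 8.49th.

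Each neighbour in that order can be set against its spread. The order was sorted on the means of these same libraries, so the signs below describe it and do not test it. Gabrb2 exceeded Gabra5 by 0.86 ± 0.46 on the log2 scale, Gabra5 exceeded Gabra2 by 0.56 ± 0.33, and Gabra2 exceeded Gabra3 by 0.43 ± 0.32, each with the same sign in 3 of 3 libraries. Gabra3 and Gabra4 did not differ beyond their spread, with 0.35 ± 0.77 and the sign reversed in replicate 3. Gabra4 exceeded Gabrd by 1.36 ± 0.71 and Gabrd exceeded Gabrb1 by 1.42 ± 0.996, both in 3 of 3 libraries. Gabrb2 was first per kb of exons, per kb of the longest transcript, per kb of coding sequence and in CPM. The order of Gabra5 and Gabra2 rested on the length used. Per kb of coding sequence Gabra2 measured 70.1 ± 6.55 and Gabra5 39.4 ± 5.28 CPM per kb, so Gabra2 was the higher, as in CPM. Gabrd and Gabrb1 changed places in the same way, with 7.88 ± 6.58 and 11.3 ± 5.44 CPM per kb of coding sequence.

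As shares of the 4 alpha members, on the scale of CPM per kb of exons, Gabra5 took 44.7%, 30.5% and 41.0% in replicates 1, 2 and 3. Gabra2 took 25.1%, 26.6% and 25.9%, a mean of 25.9 ± 0.711%, the narrowest spread of the 4. Gabra3 took 21.0%, 22.5% and 14.8%, and Gabra4 took 9.18%, 20.4% and 18.3%. In replicate 1 the share of Gabra4 was low and that of Gabra5 high, while Gabra2 stayed within 25.1% and 26.6%. In plain CPM the mean shares were 40.7 ± 0.711% for Gabra2, 23.9 ± 5.46% for Gabra5, 19.8 ± 6.73% for Gabra4 and 15.7 ± 3.32% for Gabra3. These are shares of the listed members only, which held 54.2 ± 5.71% of the CPM of the 6 alpha genes in the files.

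**Figure D3:**
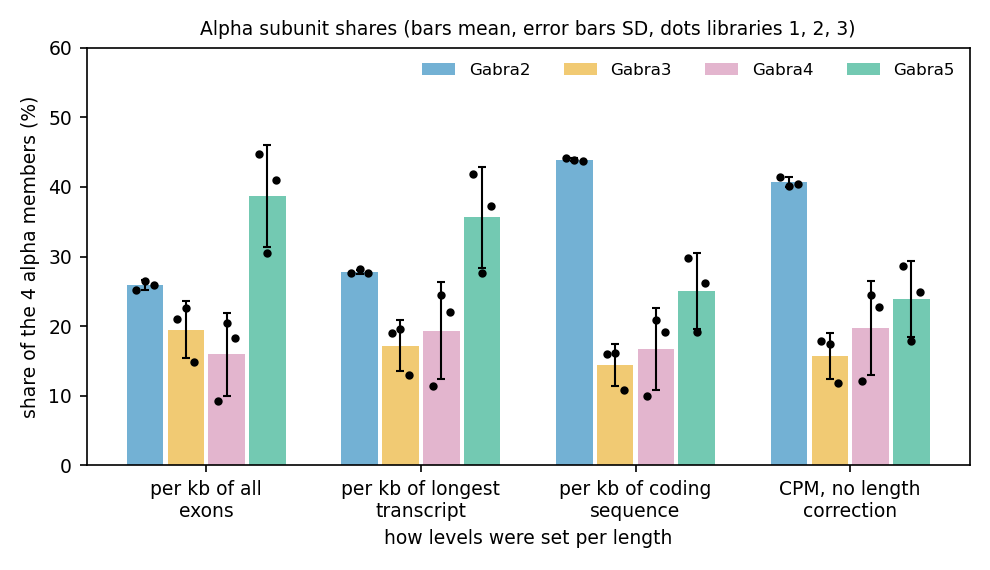
Share of each alpha member in the sum of the 4, in percent, under each of 4 ways of setting levels per length (bars are means, error bars SD, dots replicates 1, 2 and 3 from left to right). Gabra5 leads per kb of all exons and of the longest transcript, and Gabra2 leads per kb of coding sequence and in CPM.

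Of the 2 beta members, Gabrb2 took 98.6%, 96.9% and 93.5% of the CPM per kb in replicates 1, 2 and 3 and Gabrb1 1.41%, 3.07% and 6.55%. The beta members held 27.5 ± 3.03% of the CPM of the 3 beta genes in the files, so the first share is not one of all beta RNA. Counted per kb over all beta genes, Gabrb2 took 26.3 ± 4.07% and Gabrb1 0.944 ± 0.588%.

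For 4 contrasts among the members, log2 differences of CPM per kb were taken in each library and put to an exact permutation test by sign flips, two-sided, which with 3 libraries cannot give a p below 0.25. Each contrast reached that value, and the Benjamini-Hochberg adjusted p over the 4 was 0.25. Gabrb2 exceeded Gabrb1 31.6-fold, with log2 differences of 6.13, 4.98 and 3.84 in replicates 1, 2 and 3 and a mean of 4.98 ± 1.15. That mean was 3.86 in CPM, 3.75 per kb of coding sequence and 5.65 per kb of the longest transcript. Gabra4 exceeded its partner Gabrd 2.56-fold, with 1.96, 0.57 and 1.53 and a mean of 1.36 ± 0.71, which became 2.44 in CPM, 2.07 with coding length and 1.84 with the longest transcript. The sum of the 4 alpha members, 48.0 ± 3.32 CPM per kb, exceeded that of the 2 beta members, 35.3 ± 8.26 CPM per kb, by 0.47 ± 0.33. That difference was smaller than its spread in CPM (0.019 ± 0.322), per kb of the longest transcript (0.094 ± 0.363) and with coding length (0.082 ± 0.306). Both sums cover the listed members only. These held 54.2 ± 5.71% of the CPM of all alpha genes in the files but 27.5 ± 3.03% of that of all beta genes. The contrast therefore does not compare the whole classes. Gabra2 and Gabra3, the members known from synapses, summed to 21.8 ± 3.41 CPM per kb, and Gabra4 and Gabra5 to 26.1 ± 1.11. The first sum was the lower in 3 of 3 libraries, with a log2 difference of -0.27 ± 0.25, but with coding length the difference was 0.48 ± 0.19 and in CPM 0.37 ± 0.21, so its direction depends on the length used.

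The spread of the members between the libraries was tested with edgeR, by the goodness of fit of a negative binomial model across 15336 genes. Of the 7 members 0 had an adjusted p under 0.05, against 0.228% of all genes tested, and 0 had an unadjusted p under 0.05, against 7.02%. DESeq2 marked 0 of the 7 as dispersion outliers, against 0.137% of all genes. Gabrd came nearest, with an edgeR adjusted p of 0.767 that ranged from 0.617 to 0.958 over the alternatives. The trended dispersion for genes as abundant as Gabrd corresponds to a coefficient of variation of 57.8%, and that of Gabrd in CPM was 83.5%. Next were Gabra4, with an edgeR adjusted p of 0.89, and Gabrb2, with 0.954. In simulated libraries of the same depth the test found 46.0% of genes raised 8-fold in 1 library and 8.0% of genes lowered 8-fold, so an uncalled gene may still vary.

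The members differed in how far they moved between libraries. Gabra2 and Gabra5 had log2(CPM + 1) ranges of 0.24 and 0.38 over the libraries, at the 3.96th and 9.95th percentiles of tested genes. Gabrb2 and Gabra3 ranged over 0.74 and 0.76, with replicate 3 the lowest for both. Gabra4, Gabrb1 and Gabrd ranged over 1.28, 1.44 and 2.37, at the 62.8th, 69.3rd and 92.4th percentiles, and all 3 were lowest in replicate 1. Over the 7 members the median range was 0.76, beside 0.86 for the 8889 tested genes whose mean CPM lay between the lowest and highest member. With TMM scaling the lowest library of Gabra2 moved from replicate 1 to replicate 3, while the other 6 members kept their highest and lowest libraries. Gabra2 then spanned 1.35-fold and Gabra5 1.24-fold, so Gabra5 was the narrower.

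**Figure D4:**
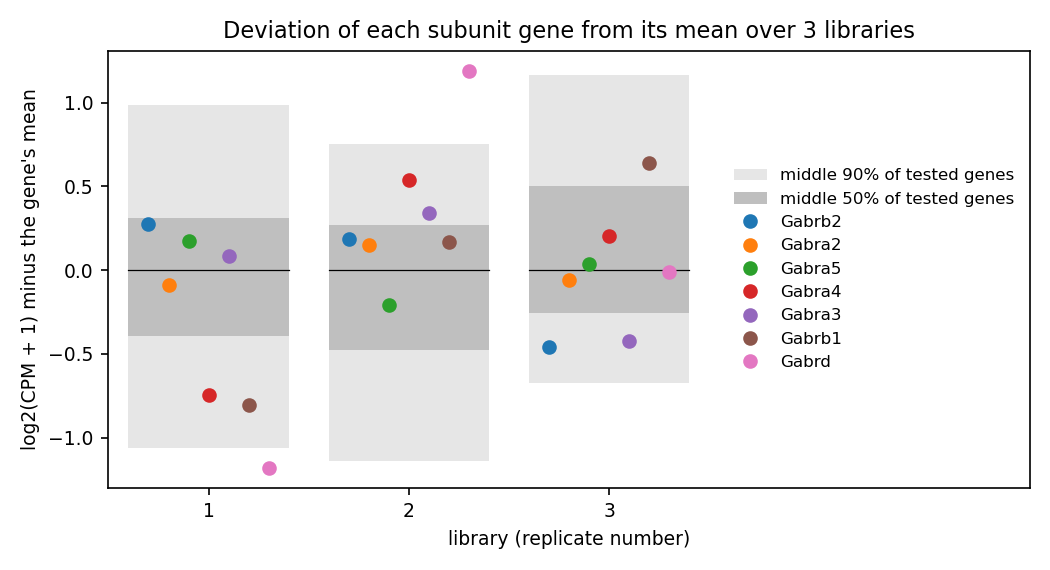
log2(CPM + 1) of each subunit gene minus its mean over the 3 libraries, for each library, with grey bands for the middle 50% and 90% of tested genes. Gabrd lies outside the 90% band in replicates 1 and 2, and Gabra4 and Gabrb1 lie with it below 0 in replicate 1.

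Replicate 1, in which Gabra4, Gabrb1 and Gabrd were lowest, also had the highest summed GABAergic, astrocyte, oligodendrocyte (383, 231 and 224 CPM) and striatal markers (302, 226 and 243 CPM). Within these lists Dlx1, Dlx6 and Drd1 were highest in replicate 3 and Gja1, Mog and Ppp1r1b in replicate 2. The remaining markers of these lists were highest in replicate 1. The oligodendrocyte precursor sum was highest in replicate 3, at 163, 112 and 230 CPM in replicates 1, 2 and 3. The summed microglial markers were 39.7, 20.3 and 28.3 CPM, of which Cx3cr1 made up 19.8, 0.486 and 2.88 CPM, and 1 of those 6 markers, C1qa, had 0 counts in at least 1 library. The part of these marker levels in the subunit values was not tested. Of the 5 GABAergic markers, Gad2, Gad1, Slc32a1 and Dlx1 reached 1 CPM in each library, and Dlx6 measured 0.27, 1.09 and 4.85 CPM. Gabra4 and Gabrd are also known from the striatum, thalamus and dentate gyrus, and the summed markers of hippocampal granule and CA cells were 239, 264 and 169 CPM.

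Gabrd had the widest range, and the genes whose profile lay nearest to it were Ccdc115, Lsm8 and Tbca. The measure was the Euclidean distance between log2(CPM + 1) profiles centred on their mean, over 3 libraries and 9764 other genes with a mean of at least 10 CPM. Ccdc115, an assembly factor of the vacuolar proton pump, measured 10.7, 60.02 and 23.4 CPM at a distance of 0.0958. Lsm8, a protein of the U6 small nuclear RNA complex, measured 4.91, 26.9 and 11.0 CPM at 0.119, and Tbca, a tubulin folding cofactor, 22.1, 103.5 and 45.5 CPM at 0.15. A profile over 3 libraries is weakly determined: 84 genes lay within 0.5 of Gabrd. Gabra4 lay at 0.818 from Gabrd and at 0.572 from Gabrb1, and the nearest pair among the members was Gabra3 and Gabrb2 at 0.251.

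Genes that place, carry or modulate GABA-A receptors were listed as partners. Of 24 partner genes 23 were matched by symbol, and these 23 all reached 1 CPM in each library. Their median was 22.2 ± 1.81 CPM per kb, above the median of the subunit genes. Highest were Gabarapl1, of the GABA-A receptor-associated protein family, at 155.7 ± 48.4 CPM per kb, Dbi, the precursor of peptides that bind the benzodiazepine site, at 105.3 ± 50.4, and Maged1 at 104.7 ± 9.25. Nsf, the ATPase of membrane fusion, measured 95.6 ± 29.3 and Hap1, an adaptor for receptor transport, 67.6 ± 9.30 CPM per kb. Of the 23 partners 0 had an edgeR adjusted p under 0.05 for variation between libraries, 0 had an unadjusted p under 0.05, and DESeq2 marked 0. The lowest was Rdx, encoding radixin, which anchors alpha5 receptors to actin, with 14.5, 50.9 and 22.8 CPM in replicates 1, 2 and 3 and an edgeR adjusted p of 0.737.

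Some partners were named after their values were seen, for their known link to the members. Gphn encodes gephyrin, the scaffold that holds receptors at inhibitory synapses, and it measured 49.3, 45.3 and 33.2 CPM. Per kb of exons it measured 11.4 ± 2.24 CPM per kb, a level near that of Gabra2 on that scale. In CPM its mean of 42.6 was below the 94.8 of Gabra2. Lhfpl4, a transmembrane protein that binds receptors at synapses, measured 140, 68.5 and 73.3 CPM and was highest in replicate 1. Shisa7, another receptor-bound protein, measured 396, 302 and 599 CPM and was highest in replicate 3.

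**Figure D5:**
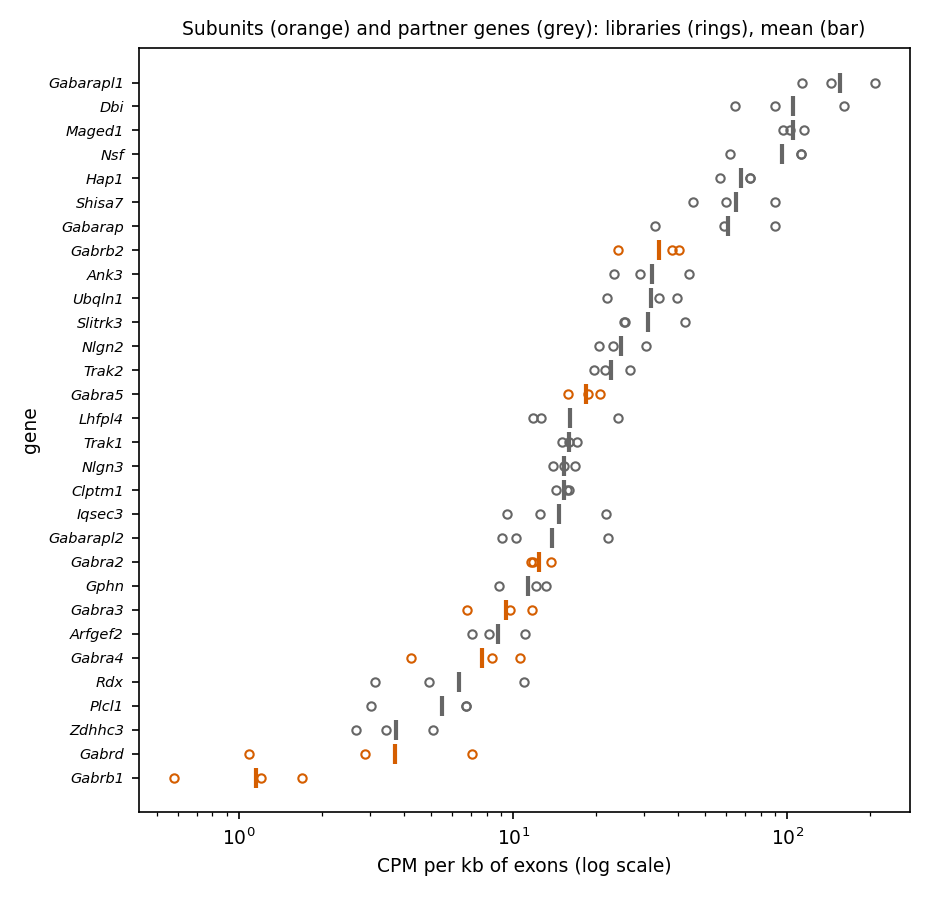
CPM per kb of exons on a log axis for the 7 subunit genes (orange) and 23 partner genes (grey), with libraries as rings and means as bars. Gabrb2 sits among the middle partners such as Ank3 and Ubqln1, and Gabrd and Gabrb1 sit at the low end, with Zdhhc3 the lowest partner.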

How the data were processed

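RNA sequencing libraries of immunopurified polysomal RNA came from 3 mice of 1 group. Each library has a deposited file of raw read counts by gene symbol. The submitters' processing notes name STAR 2.0.0e, HTSeq and the mm10 build. The annotation, strand setting and kit are not given in the sources used here. Reads placed in no feature made up 31.4%, 25.6% and 45.3% of entries in replicates 1, 2 and 3. Multiple alignments made up 32.7%, 24.3% and 16.5%, and ambiguous reads 1.38%, 1.98% and 1.26%. These classes stayed out of totals and tests. Genes at 1 CPM or more numbered 14181, 14085 and 15960, so replicate 3 had the most despite the fewest counts. The part of these differences in the values of single genes was not tested.

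CPM used the 18526251, 24690301 and 8668527 assigned counts of replicates 1, 2 and 3. Exon lengths came from the GENCODE M21 annotation, matched for all 7 members and 88.8% of tested genes. Log2 levels used a pseudocount of 1 CPM, which understates differences of low genes, and contrasts used none. Variation between libraries was fitted with edgeR 4.0.16 (R 4.3.3): TMM scaling, intercept only, trended dispersion, upper chi-square tail on 2 degrees of freedom, Benjamini-Hochberg adjustment over the 15336 genes averaging at least 1 CPM, threshold 0.05. It was tested on simulated data with 200 planted genes in each of 3 draws; 10.6% of its calls there were false. DESeq2 1.42.0, Python 3.11.15, pandas 2.3.3, SciPy 1.17.1 and matplotlib 3.10.9 served the other steps.

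The members, lists and tests were chosen with earlier results of these data known. The rule for named genes took the members, the 5 partners with the highest CPM per kb and any called as varying, and the 3 genes nearest to the member with the widest range; other family genes that it would name, and some list entries, are not reported here. Alternatives were other scalings, filters, dispersions, lengths, denominators and a pseudocount, and leaving out each replicate. Coding length was read from annotated coding sequence.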

Additional observations from a re-analysis of the deposited data

How the results depend on the processing

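The count of 0 members called as varying held under all 9 alternatives run. Over all genes, 35 were called, and 778 with a common dispersion, 21 as DESeq2 dispersion outliers and 4 to 24 with 1 replicate left out, where fewer samples were fitted. Shares moved with length and denominator. Gabra2 took 25.9% of the alpha members, and 40.7% in CPM, 27.8% per kb of the longest transcript, 43.9% per kb of coding sequence and 16.5% of all alpha genes. Gabra3 took 19.5%, and 14.4% with coding length and 12.3% of all alpha genes. Gabra5 took 38.7%, and 23.9% in CPM, 25.04% with coding length and 24.7% of all alpha genes. Gabrb2 took 96.3% of the beta members, and 92.4% in CPM, 91.9% with coding length and 26.3% of all beta genes. The sum of Gabra2 and Gabra3 minus that of Gabra4 and Gabra5 changed sign from -0.27 to 0.37 in CPM and 0.48 with coding length. These moves follow from the lengths or genes in the sums. The other 26 contrast means kept their sign, though alpha minus beta members was within its spread at 0.019 in CPM, 0.094 with the longest transcript and 0.082 with coding length. Gabrb2 minus Gabrb1 was 4.41 to 5.56 with 1 replicate left out and 3.75 to 5.65 over the other lengths and CPM, and Gabra4 minus Gabrd was 1.05 to 1.75 and 1.84 to 2.44. No paired analysis was possible because there is 1 group. The fewest counts of any member in replicates 1 and 3 were those of Gabrd, 58 and 72.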

Other observations

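The partner genes differed in which library was highest. Replicate 1 was the highest for 10 of the 23, replicate 2 for 6 and replicate 3 for 7. Of genes chosen after their values were seen, some were highest in replicate 3: Ank3, a scaffold of the axon start, measured 1011, 815 and 1523 CPM, Iqsec3, a gephyrin-binding exchange factor, 170, 129 and 297 CPM, and Slitrk3, an adhesion protein of inhibitory synapses, 123, 124 and 205 CPM. Gabarap, Gabarapl2 and Dbi were highest in replicate 1 and lowest in replicate 3, with 166, 109 and 60.9 CPM for Gabarap, 51.6, 23.9 and 21.1 for Gabarapl2 and 230, 128 and 91.4 for Dbi in replicates 1, 2 and 3. None of these genes passed the edgeR test for variation between libraries, with adjusted p-values of 0.764 for Gabarap and 0.794 for Dbi.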
